A study of Drosophila melanogaster with 4 samples.

Results

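LSD1 enrichment along the euchromatic X chromosome of Drosophila melanogaster comprised 1500 regions, of the 9018 regions that the combined list of the study holds for the whole genome. The regions were chosen by position alone: each starts on X outside the last 2 Mb of the 22.4 Mb chromosome, at its centromere end, where another 57 regions start. All positions are those of release 5 of the fly genome, counted from 1. The last region kept was X:20395116-20397044, enriched 1.34-fold, and the next on X, left out, was X:20502034-20503036 at 1.39-fold. The study profiled Oregon-R embryos, wild type in genotype and 14 to 16 h old, by chromatin immunoprecipitation and sequencing (ChIP-seq), with 2 ChIP samples taken with an LSD1 antibody named Q3430 and 2 input samples, 1 serving each ChIP. All samples shared strain, genotype and stage, and no sample lacked LSD1, so input chromatin was the only background. Each ChIP replicate has its own list of enriched regions, and a combined list belongs to the pair. Whole embryos were used, so a region's value is a mixture over tissues, and the labels give no sex.

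LSD1, in flies also called Su(var)3-3, is a demethylase that takes methyl groups off lysine 4 of histone H3, a mark of active promoters and enhancers when present. It works together with the corepressor CoREST, and in flies it is known for its part in setting up heterochromatin and in the development of germ cells. The X chromosome is a chromosome apart in flies: males carry a single copy and raise its transcription through the MSL complex, which acetylates histone H4 along the active X genes.

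The deposited lists hold 1 score per region, with values on a log2 scale, and enrichment is given as the corresponding fold, on the scale of its own list. Read depth per sample is unknown. Since 2 ChIP samples and no control lists were available, no difference was tested, and the 95% intervals below (exact Poisson for densities, Wilson for shares) cover counting error only, with neighbouring regions not independent.

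Region density on euchromatic X lay within the range of the other arms examined in the combined list. The combined list held 73.4 regions per Mb (interval 69.8 to 77.3) and covered 3.10 Mb, or 15.2% of the stretch. Replicate 1 had 627 regions on the same stretch, 30.7 per Mb, which covered 6.97%, and replicate 2 had 477 regions, 23.4 per Mb, which covered 4.75%. On the matching stretches of 2L, 3L and 3R, each without the 2 Mb at its centromere end, the combined list held 72.96, 77.7 and 70.7 regions per Mb. The ratio of X to these 3 arms together was 0.997 for the combined regions, 0.962 for replicate 1 and 1.17 for replicate 2. The replicates thus lay on either side of equal density. In replicate 2 the X density of 23.4 per Mb (21.3 to 25.5) stood beside 20.5, 18.4 and 20.7 on 2L, 3L and 3R. The ratio of the combined list was 1.71 when only the higher-scoring 50% of all regions was kept, a selection that retained 1110 regions on X.

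The regions were spread along the whole stretch, with 2 denser parts near its ends. Counted in 20 full windows of 1 Mb by the midpoint of each region, the combined list had a median of 72.5 regions per window. The most, 105 (interval 85.9 to 127), lay in X:1000001-2000000, which also held the most regions in replicate 1, 50 against a median of 31.5, and in replicate 2, 41 against a median of 22.5. In that window 27.4% of the bases were covered. Next came X:19000001-20000000 with 95 combined regions, beside 45 of replicate 1 and 33 of replicate 2, and then X:2000001-3000000 and X:18000001-19000000 with 91 each. The fewest regions, 56 (42.3 to 72.7), lay in X:4000001-5000000 and in X:12000001-13000000. Replicate 1 had its fewest, 16, in X:9000001-10000000, where replicate 2 had 17. At this placement all 3 lists had the same densest window but not the same sparsest one, and the densest window moved with the placement. In windows of 500 kb it was X:19000001-19500000 in the combined list and in replicate 1, but X:1000001-1500000 in replicate 2. With the 1 Mb windows shifted by 500 kb it was X:18500001-19500000 in the combined list, X:1500001-2500000 in replicate 1 and X:17500001-18500000 in replicate 2. Across the 20 unshifted windows of 1 Mb, Spearman's rho of the counts was 0.653 between replicate 1 and replicate 2. This is a description, as all windows come from the same 2 ChIP samples and their calling.

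**Figure D1:**
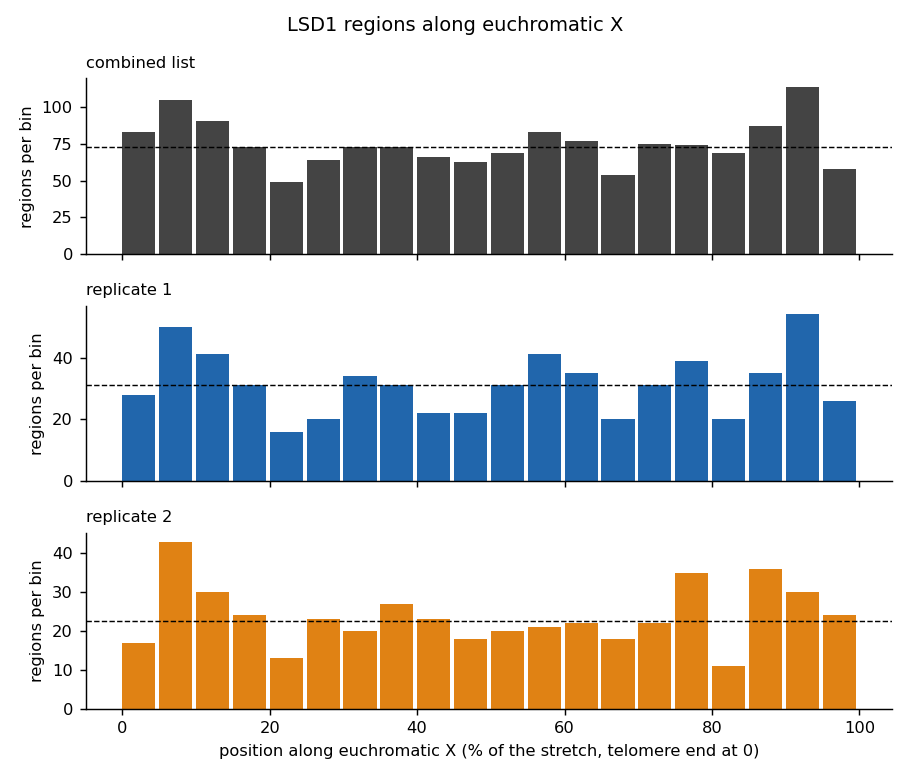
Number of LSD1 regions in 20 bins of 5% of the euchromatic X stretch (x axis, telomere end at 0), in the combined list and in each replicate list, with the median over bins as a dashed line. The combined list reaches 105 regions between 5% and 10% and 114 between 90% and 95%, and falls to 49 between 20% and 25%.

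Median enrichment varied little between windows, but the number of strong regions did not stay even. The median per full window ran from 1.38-fold to 1.43-fold in the combined list. The share of a window's regions that at least 1 replicate list met ran from 39.7% in X:9000001-10000000 to 57.7% in X:11000001-12000000. The densest window, X:1000001-2000000, had 50.5% and a median of 1.41-fold, within both ranges. Regions above 2-fold per full window ran from 0 in X:9000001-10000000 to 8 in X:15000001-16000000. Regions held by both replicates ran from 7 in X:9000001-10000000 to 22 in X:19000001-20000000.

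Spacing was uneven, with many short gaps and a few long empty stretches. The median gap between neighbouring regions was 4319 bp in the combined list, while the mean was 11518 bp and the standard deviation of the gaps was 1.69 times the mean. Gaps of up to 1 kb made up 20.9% of the 1499 gaps. At the other end, 69 gaps of 50 kb or more were 4.60% of all gaps and held 27.9% of the stretch. The median gap was 10498.5 bp in replicate 1 and 18973.5 bp in replicate 2, which have fewer regions. On 2L, 3L and 3R the median gap of the combined list was 4122, 3592 and 4806 bp, so the value on X lay inside their range, whereas the share of gaps of up to 1 kb was lower on X than on these arms, where it was 25.1%, 24.7% and 22.6%.

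**Figure D2:**
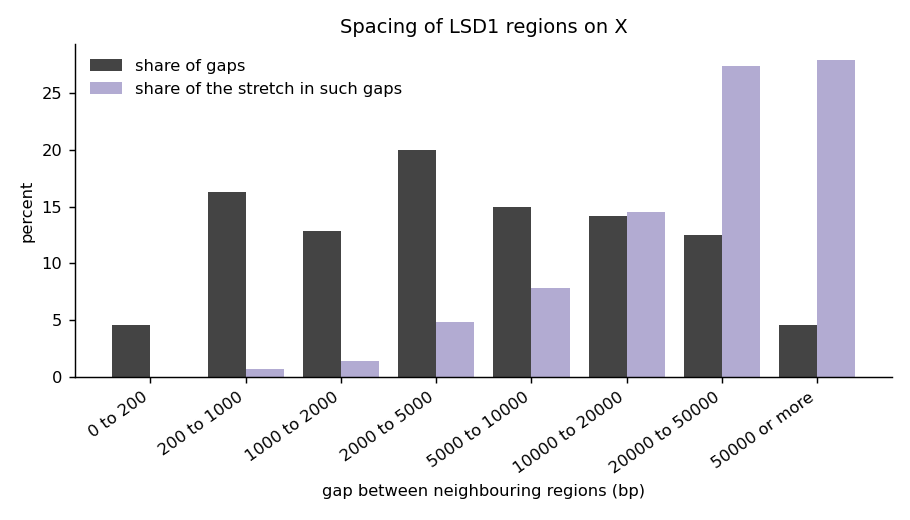
Share of the 1499 gaps between neighbouring LSD1 regions on X (dark bars) and share of the stretch that lies in them (light bars), in percent, by length class of the gap in bp. Gaps of 50000 bp or more are 4.60% of the gaps and 27.9% of the stretch.

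The widest gap without a region of the combined list spanned 178 kb at X:7603881-7781799. It was followed by X:19858949-20031753 (173 kb), X:7235329-7399373 (164 kb), X:20123675-20256159 (132 kb), X:10848755-10974979 (126 kb) and X:11050215-11174205 (124 kb). Replicate 1 had 0 regions inside any of these 6 gaps. Replicate 2 had 1, 2, 1, 0, 1 and 0 regions inside them, in the same order. A pair of them thus lay close together, within X:7235329-7781799, and another pair lay at the end of the stretch, the first of it mostly inside the dense window X:19000001-20000000. The longest gap of replicate 2, 557 kb at X:16829745-17387146, was not empty otherwise: the combined list had 29 regions in it, at most 1.55-fold enriched, and replicate 1 had 9. That of replicate 1, 366 kb at X:12648669-13014428, held 15 regions of the combined list and 2 of replicate 2.

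Runs of closely spaced regions were common. With a cluster taken as at least 4 neighbouring regions with gaps of up to 5 kb, 637 regions (42.5%) lay in 114 clusters, against 41.1% of all regions of the combined list. The clusters spanned 2.29 Mb, or 11.2% of the stretch, with a median span of 17.2 kb. Most were small, with 45 clusters of 4 regions and 6 clusters of 10 or more. Replicate regions of both lists lay in 83 of the 114, and 6 clusters held no region that a replicate met. A run of only 1 region, with no neighbour within 5 kb on either side, accounted for 369 regions (24.6%). The definition sets these counts: 49 clusters were found with gaps of up to 2 kb and 42 with at least 6 regions, and 186 with at least 3.

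The largest cluster by number, X:970426-1009378, held 13 regions in 39.0 kb and covered 68.0% of that span. Its strongest region reached only 1.64-fold, and 2 of its 13 regions were held by both replicates. The cluster X:1706940-1743118 also held 13 regions, at most 1.45-fold enriched. Next was X:12599954-12648956, with 12 regions, at most 1.54-fold. Of the 5 largest clusters, these first 3 contained no region above 2-fold. The other pair did: X:1122788-1203116, with 11 regions over 80.3 kb and a maximum of 3.46-fold, and X:17603142-17640450, with 10 regions and a maximum of 12.4-fold. In the latter the median was 1.37-fold, so its 2 regions above 2-fold stood among weak ones.

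Enrichment on X was mostly shallow. Median enrichment was 1.40-fold for the combined regions, and 1.62-fold and 1.63-fold for those of replicate 1 and replicate 2. Above 2-fold were 74 regions of the combined list (4.93%, interval 3.95 to 6.15), beside 4.56% of all regions. Replicate 1 had 80 such regions on the stretch (12.8%, beside 9.62% over its whole list), and replicate 2 had 72 (15.1%, beside 15.2%). On 2L, 3L and 3R the shares above 2-fold were 4.11%, 2.63% and 2.46% in the combined list. They were 9.71%, 6.17% and 6.44% in replicate 1, and 16.5%, 12.8% and 12.8% in replicate 2. The shift of X against 2L, 3L and 3R was present at the bottom of the distribution as well as in the middle. The 10th percentile of the combined list was 1.31-fold on X and 1.26-fold, 1.27-fold and 1.27-fold on these arms, the median was 1.40-fold beside 1.34-fold on each, and the 90th percentile was 1.62-fold beside 1.49-fold, 1.46-fold and 1.48-fold. In replicate 2 the 10th percentile was 1.45-fold on X and 1.38-fold on each of the 3 arms, while its 90th percentile of 2.43-fold lay below the 2.89-fold of 2L and above the 2.21-fold of 3L and the 2.14-fold of 3R.

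Within single fold classes below 2-fold, the share of regions held by both replicates was lower on X than in the whole list. Of 496 regions on X enriched above 1.4-fold and up to 1.5-fold, 12.7% were held by both, beside 29.5% of the 1463 regions of that class in the whole list. Between 1.5-fold and 2-fold it was 62.8% of 188 regions, beside 77.6%. From 2-fold to 4-fold the shares were 86.0% of 57 and 82.8%. Folds on X were shifted upward, so equal fold is not equal rank within X and within the whole list. Without fold classes, the share up to 2-fold was not lower on X. At 2 kb or more it was 46.8% on X beside 46.5%, and for narrower regions 2.39% beside 1.90%. These differences were not tested.

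A step at a width of 2 kb ran through the regions. The combined regions ranged from 1001 to 33815 bp, with a median of 1682 bp and 1017 of the 1500 (67.8%) narrower than 2 kb, beside 67.5% of the whole list. Among these narrower regions the median was 1.42-fold for widths from 1000 up to 1200 bp, 1.38-fold for 1200 to 1400 bp, 1.34-fold for both 1400 to 1600 bp and 1600 to 1800 bp, and 1.35-fold for 1800 to 2000 bp. From 2000 to 2200 bp it was 1.45-fold and from 2200 to 2400 bp 1.50-fold. Below 2000 bp Spearman's rho of width and fold was -0.48 over 1017 regions, and from 2000 bp on it was 0.08 over 483 regions. In replicate 1 the corresponding values were -0.10 over 334 and 0.26 over 293 regions, and in replicate 2 they were -0.22 over 277 and 0.45 over 200 regions. The step at 2 kb appeared in both replicate lists too. In replicate 1 the median was 1.55-fold from 1800 to 2000 bp and 1.69-fold from 2000 to 2200 bp, and in replicate 2 it was 1.54-fold and 1.73-fold. The width of 2 kb was chosen after these values were seen, and the cause of the step was not tested.

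Above 2-fold, the same width separated regions that both replicates held from those they did not. All 62 regions of 2 kb or more that exceeded 2-fold were held by both replicates, the narrowest being 2103 bp wide, beside 99.1% of such regions in the whole list. Of the 12 regions narrower than 2 kb above 2-fold, 0 were held by both, as in the whole list (0 of 84). Up to 2-fold the width of 2 kb separated regions held by both from the others only in part. Held by both were 197 of the 421 regions of 2 kb or more (46.8%, beside 46.5% in the whole list). Of the 1005 narrower ones, 24 were held by both (2.39%, beside 1.90%). Also up to 2-fold, 24 of 185 regions at 1800 to 2000 bp were held by both, against 42 of 91 at 2000 to 2200 bp (46.2%). Over all folds, 259 of the 283 regions held by both were at least 2 kb wide, but 224 of the 483 regions of that width were not held by both. Wider regions can also meet another region more easily, which these shares include.

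**Figure D3:**
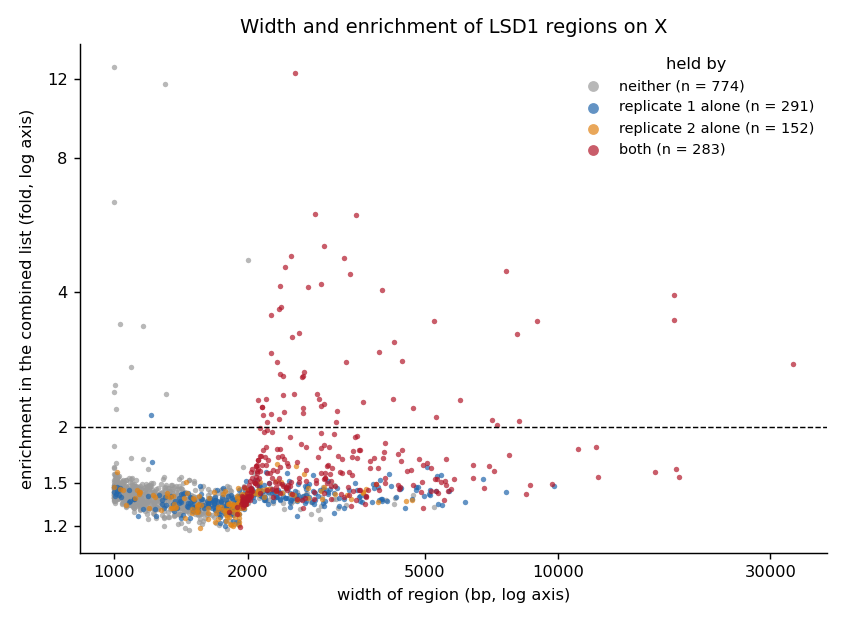
Width of each of the 1500 regions on X in bp (x axis, log scale) against its enrichment in the combined list as a fold (y axis, log scale), coloured by which replicate lists hold it, with 2-fold as a dashed line. Regions held by both lie almost all at 2 kb or more, and the points above 2-fold at smaller widths are held by neither replicate with 1 exception.

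Support in the replicates was partial. At least 1 replicate list met 726 regions (48.4%, interval 45.9 to 50.9, beside 47.9% over the whole list), by an overlap of 1 bp or more. Both lists met 283 (18.9%, beside 18.3%), replicate 1 alone 291 (19.4%), replicate 2 alone 152 (10.1%), and neither 774 (51.6%). With replicate 2 as the only list, the share was 29.0%, and with replicate 1 as the only list 38.3%. Regions in neither list were narrow, with a median of 1274 bp and 1.39-fold, and 411 of the 774 were narrower than any region of the replicate lists. Those held by both had medians of 2699 bp and 1.59-fold. From the side of the replicates, 292 of the 627 regions of replicate 1 (46.6%, beside 43.7% of its whole list) met replicate 2, and 299 of the 477 of replicate 2 (62.7%, beside 68.6%) met replicate 1. On 2L, 3L and 3R that last share was 68.7%, 71.3% and 69.8%. Replicate 2 thus had more regions of its own on X: 178, or 37.3% of its regions there, beside 31.3%, 28.7% and 30.2% on these arms. None of its 178 exceeded 2-fold, and of the 335 regions of replicate 1 that replicate 2 lacked, 2 did.

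Where both replicates held a region, they placed it at nearly the same bases. Of the 283 regions, 247 (87.3%) met exactly 1 region in each list. In 242 of these the replicate regions overlapped each other, with a median of 1986.5 bp in common, and in 5 they sat side by side within the combined region. The midpoints of the pair were a median of 125.5 bp apart, and 1000 bp at the 90th percentile. Spearman's rho of their folds was 0.676 over the 283 regions. It was 0.850 over the 62 regions above 2-fold in the combined list, but 0.339 over the 221 regions up to 2-fold. The pairs were chosen for meeting the same combined region, which limits how far apart they can lie. All pairs also come from the same 2 ChIP samples and their calling, so these values are descriptions.

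**Figure D4:**
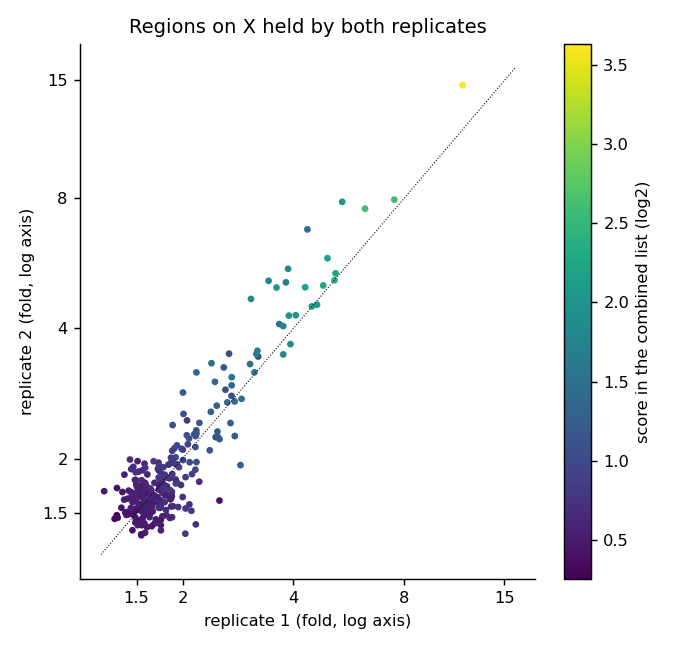
Enrichment in replicate 1 (x axis) and replicate 2 (y axis) of the 283 regions on X held by both replicates, as folds on log axes, coloured by the score in the combined list, with equal values as a dotted line. The strongest reaches 11.5-fold and 14.6-fold, and 221 of the regions are at most 2-fold in the combined list.

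The strongest region held by both was X:17615802-17618358, 2557 bp wide. Its fold was 12.4 after combination, 11.5 in replicate 1 and 14.6 in replicate 2, which ranked 9, 3 and 2 over the whole genome in the 3 lists. Among the 283 regions held by both, the next reached 5.97-fold. That was X:10183176-10186014, with 6.27-fold and 7.57-fold in replicate 1 and replicate 2. A near neighbour, X:10212080-10215588, followed at 5.96-fold, 7.52-fold and 7.95-fold, 26.1 kb away with 1 region between them.

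Place 4 was taken by X:18030510-18033480, at 5.06-fold, with closely matching values of 5.18-fold and 5.17-fold in the replicates. Then came X:16205876-16208378 at 4.82-fold, 4.82-fold and 5.03-fold, and only 4.40 kb beyond it X:16212780-16216172 at 4.40-fold, 4.95-fold and 5.82-fold, with 0 regions between. Another close pair was X:12467760-12470188 at 4.55-fold, 4.31-fold and 4.98-fold and X:12493360-12496656 at 4.76-fold, 5.21-fold and 5.37-fold, 23.2 kb apart. So 6 of the 12 strongest regions formed 3 pairs within 30 kb, a limit not fixed in advance. Among all 74 regions above 2-fold, 15 gaps between neighbours were up to 30 kb, and the median gap was 161 kb. The widest of the 12 was X:11710750-11718378, 7629 bp at 4.45-fold, 4.49-fold and 4.50-fold, and its nearest neighbour was 8477 bp away. The remaining regions were X:19506124-19509038 (4.18-fold, 4.64-fold and 4.54-fold), X:17856030-17858390 (4.14-fold, 3.60-fold and 4.98-fold) and X:15826730-15829454 (4.11-fold, 4.06-fold and 4.29-fold). Each of the 12 met exactly 1 region in each replicate list, which covered 69.7% or more of it, and 11 of them were between 2361 and 3509 bp wide.

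All of these 12 regions held by both lay beyond 10 Mb, in the part of X nearer the centromere. Of the 74 regions above 2-fold, 24 of 725 regions lay in the first 10 Mb (3.31%, interval 2.23 to 4.88) and 50 of 775 in the 10.4 Mb beyond (6.45%, 4.93 to 8.41). The longest stretch without a region above 2-fold spanned 1623 kb, X:8520293-10143105, and held 98 weaker ones. The replicates showed the same direction for regions above 2-fold, with 29 of 287 in the first 10 Mb (10.1%) against 51 of 340 beyond (15.0%) in replicate 1, and 27 of 232 (11.6%) against 45 of 245 (18.4%) in replicate 2. Their own 12 highest regions on X did not all lie beyond 10 Mb, however: 10 did in replicate 1 and 6 in replicate 2. The limit of 10 Mb was chosen after these positions were seen. Strong regions were also seldom in clusters, with 20 of the 74 (27.0%) there, beside 42.5% of all 1500, and this difference was not tested.

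Broad regions made up a small part on X. There were 57 regions of 5 kb or more (3.80%, beside 4.71% of the whole list), which held 14.9% of the covered bases, and 9 exceeded 10 kb. On 2L, 3L and 3R, 4.17%, 4.28% and 5.30% of regions were that wide. Of the 57, 42 (73.7%) met both replicate lists and 56 (98.2%) met 1 or more. Over the whole list these shares were 73.9% and 99.5% of 425 regions, so support for broad regions on X was near that background. The replicate lists themselves held 24 regions of 5 kb or more in replicate 1 (3.83% of its regions) and 5 in replicate 2 (1.05%).

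At least 1 replicate list had 2 or more regions in each of the 8 widest regions, in some cases of unequal strength. Replicate 1 had only 1 region in X:2539220-2557414 and in X:1973680-1985806. The widest, X:1148400-1182214, was 33.8 kb long and enriched 2.76-fold, with 6 regions of replicate 1 and 5 of replicate 2 within it. Its core was 4.37-fold in replicate 1 (X:1161222-1172750) and 6.78-fold in replicate 2 (X:1163145-1172384), and all other parts were below 2-fold in both. In X:6871768-6889992, 18.2 kb at 3.94-fold, there were 2 strong parts. Replicate 1 had X:6873689-6878764 at 5.43-fold and X:6879283-6888820 at 4.18-fold, and replicate 2 had X:6874552-6877951 at 7.86-fold and X:6879212-6884216 at 7.29-fold. Both parts carried higher folds in the replicate lists than the combined region that spans them, although the lists differ in scale. X:2539220-2557414, 18.2 kb at 3.46-fold, had 3.87-fold over 14907 bp in replicate 1 and up to 5.50-fold over 4920 bp in replicate 2. These 3 broad regions lie in the first 10 Mb, where none of the 12 strongest regions held by both lies.

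The other 5 of the 8 widest regions reached at most 1.80-fold in the combined list, and at most 2.22-fold in any replicate part. X:10618364-10637008 (18.6 kb) was enriched 1.54-fold in the combined list and at most 1.91-fold and 1.79-fold in the replicates. For X:12555226-12573596 (18.4 kb) the values were 1.61-fold, 2.22-fold and 1.77-fold, and for X:2186492-2203016 (16.5 kb) 1.59-fold, 1.88-fold and 1.99-fold. X:3663084-3675342 (12.3 kb) had 1.54-fold, 1.72-fold and 1.96-fold, and X:1973680-1985806 (12.1 kb) had 1.80-fold, 2.00-fold and 1.98-fold. In each of these 5 replicate 1 covered more of the region, between 84.4% and 88.2%, than replicate 2, between 22.0% and 54.2%. The 3 stronger broad regions had the same direction. Replicate 1 against replicate 2 covered 80.2% against 53.5% of X:1148400-1182214, 80.2% against 53.3% of X:6871768-6889992 and 81.9% against 73.5% of X:2539220-2557414.

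**Figure D5:**
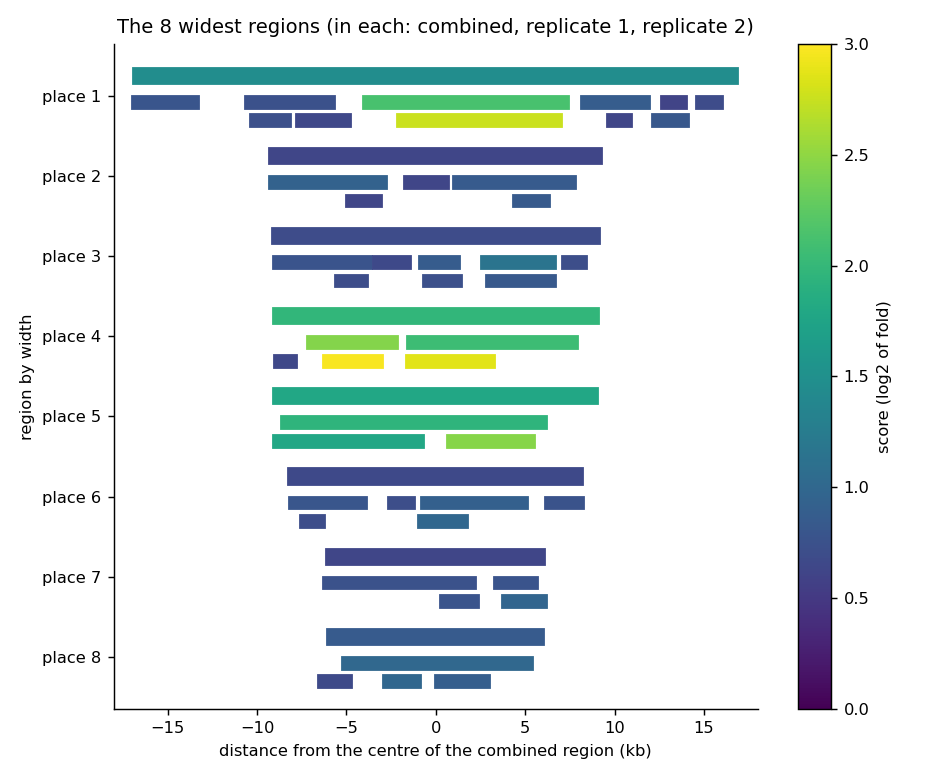
The 8 widest regions on X, from the widest (place 1, 33.8 kb) down to 12.1 kb, drawn by distance from their centre in kb (x axis). In each, the top bar is the combined region, the middle bars the regions of replicate 1 and the bottom bars those of replicate 2, coloured by the log2 score of their own list, and places 1, 4 and 5 carry the strong parts.

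A few high scores on X had no counterpart in either replicate list. The highest score on the stretch, 12.8-fold, belonged to X:1416406-1417406, which is 1001 bp wide. After it came X:13895254-13896558 at 11.7-fold (1305 bp) and X:12066622-12067622 at 6.38-fold (1001 bp). Every score of the combined list equals the log2 of 2.13 times a ratio of whole numbers, and for these 3 regions the ratios in lowest terms were 6 to 1, 11 to 2 and 3 to 1. Altogether 11 regions above 2-fold were held by neither replicate, 1001 to 1999 bp wide, with a second number between 1 and 32. For the 62 held by both it was between 77 and 6951. No source used here states what these whole numbers count, and lowest terms make each a lower bound. Of the 11 regions, 8 were narrower than any region of the replicate lists.

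Conversely, 17 regions of replicate 1 (2.71%, beside 2.48% of its whole list) and 17 of replicate 2 (3.56%, beside 3.07%) met no region of the combined list. The highest were X:13691304-13692657 at 1.78-fold and X:17332248-17333716 at 1.73-fold in replicate 1, and X:1457804-1459452 and X:3060177-3061501, at 1.76-fold each, in replicate 2. None of the 34 exceeded 2-fold, and 0 of them met a region of the other replicate.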

How the data were processed

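Bowtie 0.12.7 is listed per the submitters' processing notes, and release 5 of the FlyBase genome per the file headers. For the caller, its threshold and the making of the combined list, the sources used here give nothing. A deposited list has start, end and 1 score for each region, with no unit named. The deposited score was taken as a log2 value because 100% of the scores in each of the 3 lists equal the log2 of a list constant (2.13 in the combined list) times a ratio of whole numbers, at a relative tolerance of 1e-12 and denominators up to 20000. Folds are 2 to the power of the score. Depth is unknown.

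Groups and replicate numbers come from the sample titles. Gaps are the bases between neighbouring regions. The members, lists and measures were chosen with earlier results of these data known. The named regions follow a rule: the 12 strongest held by both replicates, 8 widest, 5 largest clusters, 6 widest gaps, 3 highest held by neither, 2 highest of each replicate without a combined region, and those at the position limit. Other single windows or gaps were named after their values were seen. Alternatives were the whole chromosome, merging of regions closer than 200 bp, the higher-scoring 50%, an overlap of 50%, either replicate alone, and other cluster and window settings. The steps for overlap, clusters, merging and ratios were tested on simulated data. No gene or sequence is given, as no genome of release 5 was used here and the available gene table belongs to release 6. Software was scipy 1.17.1, pandas 2.3.3, matplotlib 3.10.9 and numpy 2.4.6 under Python 3.11.15.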

Additional observations from a re-analysis of the deposited data

How the results depend on the processing

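Of 42 alternatives to 11 results, 23 stayed within the 95% interval of the reported value or, for counts, windows, and covered share, within 1.5 times of it. With the higher-scoring 50% of the combined list, the median width was 1787 bp, the median gap 6325 bp, the share in clusters 25.5% and the number of clusters 54. Under the same setting the share held by both replicates was 24.1%, the share above 2-fold 6.67% and the ratio of X density to 2L, 3L and 3R 1.71. A stricter score leaves fewer regions by construction, and X keeps more of its regions than the other arms because its scores are higher. The share in clusters was 38.1% after merging, 17.0% with gaps of up to 2 kb, 64.9% with 10 kb, 56.9% with at least 3 regions and 21.5% with at least 6. The number of clusters was 49 with 2 kb, 186 with at least 3 regions and 42 with at least 6. Asking for 50% of a region to be covered gave 45.6% held by at least 1 replicate and 15.4% by both. Leaving out a replicate gave 29.0% to 38.3% held. No paired analysis was possible because no result comes from a test between ChIP and input samples, for which no lists of input regions were used here. Read depth is unknown, so the precision of the folds could not be given.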
